A study of Mus musculus with 4 samples.

Results

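The genes described are 10 that carry dietary lipid through the absorptive cell of the intestine: Cd36, Npc1l1, Fabp1, Fabp2, Dgat1, Apob, Mttp, Apoa1, Apoa4 and Apoc3. They were chosen by name, and all 10 were found among the 56748 genes of the count table. RNA was sequenced from the small intestine (SI) of WT (p53+/+) and p53-/- mice in 2 libraries per genotype, every one of them taken 1 day after 12 Gy total body irradiation (TBI). The mice of both genotypes were 8 to 12 weeks of age. In the p53-/- mice Trp53 is lost in all cells, so the epithelium and the immune cells of the sampled tissue were both without p53, and no unirradiated SI was analysed here. Nothing in the labels says whether a library stands for 1 animal. The paper describes its data points in general as biological replicates, but gives no number of animals for the RNA sequencing. The p-values therefore measure only the spread between these libraries, which may not be the spread between animals. Within a genotype, counts differed by more than counting noise alone. The chi-square per degree of freedom was 48.0 for WT and 69.5 for p53-/-, where counting noise alone gives about 1. The libraries are named by the numbers in the headers of the count table, 7 and 8 for WT and 9 and 10 for p53-/-.

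Fatty acids, monoacylglycerol and cholesterol released by digestion enter the enterocyte across the brush border, are bound by small cytosolic proteins, and are built again into triglyceride and cholesteryl ester in the endoplasmic reticulum. There the lipid is loaded onto apolipoprotein B to form a chylomicron, a lipoprotein particle that takes up further apolipoproteins and leaves the cell for the lymph. Much of this program is strongest in the proximal SI, whereas the uptake of bile acids is a property of the distal SI, the ileum.

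Library totals were between 15005479 and 22173164 counts. Levels are given in CPM, counts relative to the library total over the genes kept for testing, scaled by TMM. TMM is a trimmed mean of log ratios to a reference library. Trp53 itself was at 57.7 and 47.1 CPM in WT SI and at 19.8 and 22.5 CPM in p53-/- SI (adjusted p = 0.0602, edgeR's quasi-likelihood test). Library 10 stood apart by its ribosomal RNA (4.59% of counts, against 0.296% to 0.863% in the others) and by 7 B cell genes that summed to 457 CPM, against 1.11, 1.82 and 22.5 CPM in libraries 7, 8 and 9. The 8 T cell genes summed to 8.11 and 15.4 CPM in the WT libraries and to 68.3 and 134 CPM in the p53-/- libraries. The part of lymphoid RNA in the levels of the lipid genes was not tested. Without library 10 the median log2 fold change of the 10 genes was -0.76, and with ribosomal RNA left out of the table it was -0.47. Pancreatic acinar genes summed to between 4.93 and 9.05 CPM. The 10 absorptive enterocyte genes gave 18089 and 19861 CPM in the WT libraries and 17039 and 13098 CPM in the p53-/- libraries. Of these Anpep, a brush border aminopeptidase, had the highest level, with 8097, 11001, 9591 and 6957 CPM in libraries 7 to 10. The median log2 fold change of these 10 enterocyte genes was -0.25, with 8 below 0 and 2 above, Slc5a1 (0.10) and Slc2a2 (0.02). DESeq2 called 3 of them lower, where it called 3.50% of all genes with an adjusted p lower. The 3 were Mep1a (2731 and 2457 against 1080 and 821 CPM), Alpi (657 and 512 against 362 and 252 CPM) and Slc15a1 (370 and 465 against 246 and 209 CPM). They encode a metalloprotease, an alkaline phosphatase and a peptide transporter of the brush border. These 3 were named after their values were seen.

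All 10 genes had enough counts to be tested for a difference between genotypes, and 0 passed the threshold in either direction (edgeR's quasi-likelihood test, adjusted p under 0.05). With 2 libraries per genotype, Trp53 itself did not pass this test (log2 fold change -1.31, adjusted p = 0.0602, edgeR's quasi-likelihood test). A gene that did not pass, here or in the lists below, is therefore not shown to be unchanged. Across the 16094 genes tested, 0.193% were called lower and 0.298% higher in the p53-/- SI. Before adjustment 2 of the 10, Fabp2 and Dgat1, had a p under 0.05 with the lower level in the p53-/- SI, against 7.92% of all genes tested. Both WT libraries lay above both p53-/- libraries for 4 of the 10 (Apoa1, Fabp2, Apob and Dgat1), against 24.4% of all genes tested, and the reverse order was seen for 0 of the 10, against 26.4%. The fitted log2 fold change was below 0 for each of the 10, with a median of -0.52, where 50.7% of all genes were below 0 with a median of -0.01. With DESeq2, 2 of the 10 were called lower, Apoa1 and Fabp2, where 3.50% of the genes with an adjusted p were called lower. The likelihood ratio test of edgeR called 1, Apoa1, with 2.87% of all genes called lower. Without a filter on low counts the quasi-likelihood test called 2 lower, Apoa4 and Apoc3, where 2.73% of all genes were called lower and 5.15% higher. The genotypes overlapped for both genes. The adjusted p of Apoa4 was 1.36e-12 without the filter and 0.526 with it (edgeR's quasi-likelihood test), though its WT libraries lay 9.14-fold apart. These 2 calls are not taken as a result. Members of the list are not replicates, and no test was made on the list as a whole.

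Sequences upstream of the start sites are shown for 4 of the genes because they form pairs of related genes whose levels lay far apart: the neighbouring Apoa1 and Apoa4, and the related binding proteins Fabp1 and Fabp2. Each is the 250 bases before the start given by RefSeq on GRCm38.p6, on the plus strand and read 5′ to 3′. The GENCODE M21 spans of Apoa1, Apoa4 and Fabp1, given below, begin inside their windows, so the sources differ on where these genes start. Capitals mark 3 short motifs searched on both strands, which do not overlap in these windows: TATAAA, the box where the basal machinery can bind, AGGTCA, a half-site of nuclear receptors, and CAAAGTNCA, a form of the site of HNF4 factors. The letters of the motifs were chosen with the windows in view. AGGTCA was found on the reverse strand and is printed as TGACCT. The match of Fabp2 to CAAAGTNCA is on the reverse strand too, at -137 to -129 relative to the start, and the match of Apoa4 is on the forward strand, at -182 to -174.
Apoa1, chr9:46228380-46228629: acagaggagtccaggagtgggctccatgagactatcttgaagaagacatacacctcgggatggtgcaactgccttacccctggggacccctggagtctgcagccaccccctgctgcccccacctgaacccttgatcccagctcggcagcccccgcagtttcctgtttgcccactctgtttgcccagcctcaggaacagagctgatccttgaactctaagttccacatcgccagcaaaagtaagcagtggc
Apoa4, chr9:46240594-46240843: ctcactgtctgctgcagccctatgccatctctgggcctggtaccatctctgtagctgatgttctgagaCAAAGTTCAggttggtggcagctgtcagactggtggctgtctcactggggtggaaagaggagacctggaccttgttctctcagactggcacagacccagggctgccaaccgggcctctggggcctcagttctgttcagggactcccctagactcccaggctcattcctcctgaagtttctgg
Fabp1, chr6:71199629-71199878: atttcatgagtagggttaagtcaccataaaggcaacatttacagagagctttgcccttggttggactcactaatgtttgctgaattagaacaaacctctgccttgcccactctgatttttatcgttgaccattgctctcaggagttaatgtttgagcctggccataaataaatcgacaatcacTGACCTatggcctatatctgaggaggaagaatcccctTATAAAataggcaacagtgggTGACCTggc
Fabp2, chr3:122894822-122895071: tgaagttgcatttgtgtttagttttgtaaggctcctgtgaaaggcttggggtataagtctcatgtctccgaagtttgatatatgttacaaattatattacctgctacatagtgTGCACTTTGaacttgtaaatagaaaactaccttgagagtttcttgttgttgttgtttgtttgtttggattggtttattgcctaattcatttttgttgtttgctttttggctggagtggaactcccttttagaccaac
RefSeq windows were found for 8 of the 10 genes. The sources differ on the start of further genes among them. The GENCODE M21 span of Apob begins inside its window, the windows of Cd36 and Mttp lie inside their spans, and that of Npc1l1 lies apart from its span. The letters TATAAA were in 2 of them (Fabp1 and Apob), against 12.4% of 32851 windows of all genes. AGGTCA was in 3 (Fabp1, Npc1l1 and Cd36), against 14.0%, and CAAAGTNCA in 2 (Apoa4 and Fabp2), against 1.19%. The half-site of the p53 response element was in 0 of the 8, against 7.13%. A match is a run of letters in a window and no measure of binding.

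The levels spanned several orders of magnitude. In CPM, Apoa1 was the 6th most abundant of all genes by mean level, Fabp2 the 35th and Apob the 39th, whereas Cd36 and Fabp1 were at rank 10700 and 11672. Together the 10 genes took 1.59% and 1.49% of all counts in WT libraries 7 and 8 and 1.06% and 0.935% in p53-/- libraries 9 and 10, and Apoa1 alone gave between 46.5% and 54.9% of these counts. For a comparison between genes, CPM was divided by the exonic length in kilobases. On this scale the order of the WT means was Apoa1 (6973 ± 937, SD, n = 2), Fabp2 (2865 ± 582), Npc1l1 (181 ± 24.8), Apob (166 ± 0.810), Dgat1 (138 ± 2.29), Mttp (115 ± 19.7), Apoa4 (79.4 ± 90.1), Apoc3 (41.7 ± 15.6), Fabp1 (8.33 ± 2.15) and Cd36 (1.66 ± 1.05). The WT libraries of Npc1l1 and Apob overlapped, as did those of Apoa4 with Mttp and with Apoc3. The other neighbours in this order did not overlap in the WT SI. In the p53-/- SI the order of the means was the same for the first 4 genes, but Mttp (109 ± 5.28) lay above Dgat1 (96.7 ± 3.04) in both libraries, the reverse of WT, and Apoc3 (24.8 ± 9.34) lay by its mean above Apoa4 (24.1 ± 24.3). There the libraries of Apob (149 and 93.7) overlapped those of Npc1l1, Mttp and Dgat1, and those of Apoa4 overlapped those of Apoc3.

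**Figure D1:**
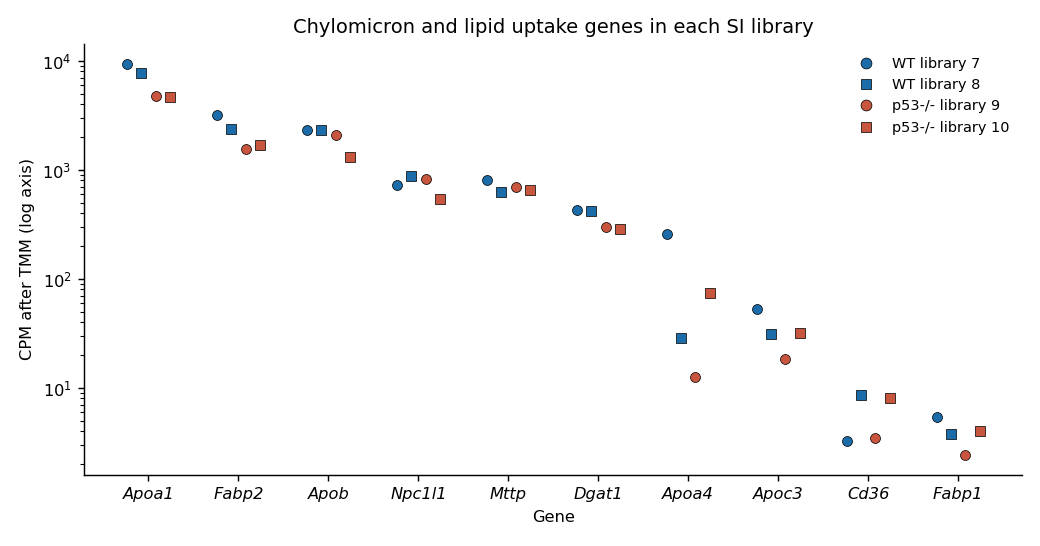
Level of each gene (CPM after TMM scaling, log axis) in the 4 libraries, WT in blue and p53-/- in red, with 1 point per library. Apoa1, Fabp2, Apob and Dgat1 have both WT points above both p53-/- points, and the WT points of Apoa4 lie 9.14-fold apart.

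The position of the sample along the gut bears on which of these genes can be read, and the labels do not name the segment. Fabp6, the bile acid binding protein of the ileum, was at 5483 and 1836 CPM in WT SI and at 1639 and 2072 CPM in p53-/- SI. Slc10a2, the ileal bile acid transporter, was at 1035, 1293, 785 and 717 CPM in libraries 7 to 10. These distal genes were abundant in every library. By contrast Fabp1 was between 2.41 and 5.45 CPM, Lct, the lactase of the proximal SI, between 0.497 and 0.990 CPM, and Gata4, a proximal transcription factor, between 0.454 and 4.13 CPM. The defining genes of proximal SI were therefore low in all 4 libraries. Summed over the lists, 7 distal genes gave 9491 and 5580 CPM in the WT libraries and 3726 and 4086 CPM in the p53-/- libraries, while 8 proximal genes gave 65.5 and 44.7 against 132 and 112 CPM. Of the proximal sum, Slc40a1, the iron exporter, gave the most, with 32.4, 21.2, 92.0 and 73.8 CPM in libraries 7 to 10, and macrophages also express it. The other 7 genes summed to 33.1 and 23.5 CPM in the WT libraries and to 39.7 and 38.5 CPM in the p53-/- libraries. Of the 7 proximal genes tested, 5 had a fitted log2 fold change above 0 and 2 below, with a median of 1.45. Those above 0 were Slc40a1 (1.63), Gata4 (1.38), Cybrd1 (1.45), Adh6a (1.87) and Onecut2 (2.29). Slc46a1, the folate transporter, was below 0, at 21.5 and 17.5 CPM in WT SI and 13.9 and 11.2 CPM in p53-/- SI. Lct was also below 0, with at most 16 counts in a library. All 7 distal genes were below 0, with a median of -0.85, where 50.7% of all genes tested were below 0. The part of sampling position in the results below was not tested.

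**Figure D2:**
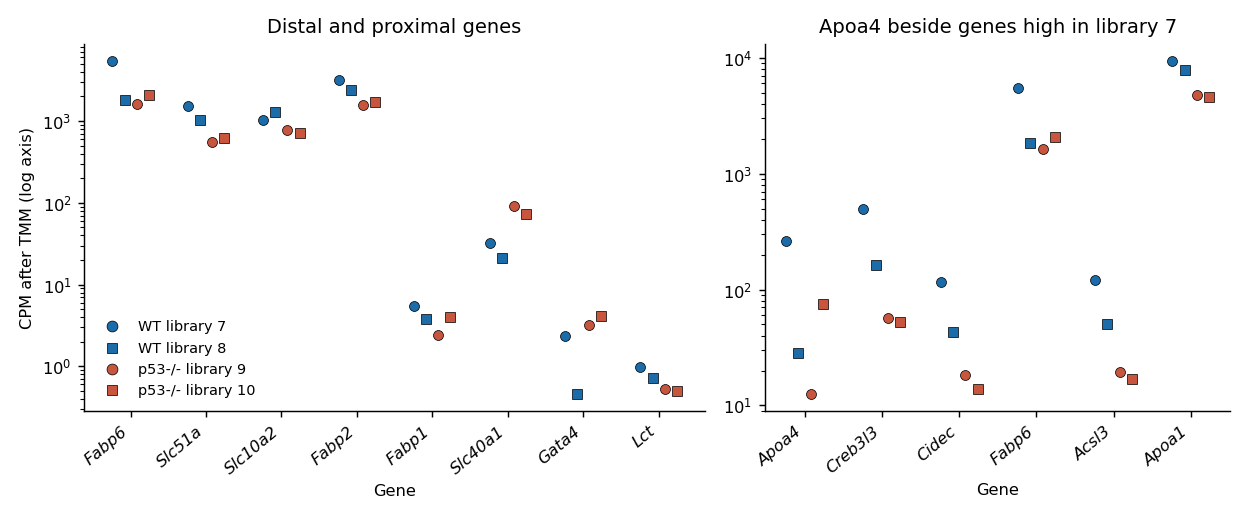
Levels (CPM after TMM scaling, log axes) in the 4 libraries, 1 point per library, of genes that mark distal or proximal SI beside Fabp1 and Fabp2 (left) and of Apoa4 beside genes with their highest level in WT library 7 (right). Fabp6 is at 1639 CPM or more in each library while Fabp1 stays at or below 5.45 CPM.

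Uptake at the brush border was represented by Npc1l1 and Cd36. Gene positions here and below are those of GENCODE M21 on GRCm38. Npc1l1 (chr11:6211013-6230143, minus strand), the cholesterol importer that ezetimibe blocks, was at 730 and 887 CPM in WT SI and at 832 and 544 CPM in p53-/- SI. The genotypes overlapped, with a log2 fold change of -0.23 and a 95% interval from -0.98 to 0.51 (adjusted p = 0.747, edgeR's quasi-likelihood test). Without library 10 the value was 0.09. Cd36 (chr5:17781690-17888801, minus strand), a fatty acid translocase that is also expressed by adipocytes, endothelium and macrophages, was at 3.28 and 8.63 CPM in WT SI and at 3.46 and 8.01 CPM in p53-/- SI. Its counts were 53, 133, 79 and 161 in libraries 7 to 10, low in 1 library of each genotype, and its interval ran from -1.67 to 1.56 on the log2 scale. Without library 8 the log2 fold change of Cd36 was 0.79 and without library 9 it was 0.42, against -0.05 with all 4, so its direction depended on which library was left out. The 10 endothelial genes listed as markers summed to 42.9, 115, 91.1 and 102 CPM in libraries 7 to 10 and the 8 macrophage genes to 58.6, 166, 210 and 289 CPM. Both sums and the level of Cd36 were lowest in library 7. Cd36 was nearly as low in library 9 (3.46 CPM), where the sums were 91.1 and 210 CPM. The genes within each of these lists did not all keep the same order of libraries. The 10 adipocyte genes summed to 219 and 177 CPM in the WT libraries and to 75.2 and 83.0 CPM in the p53-/- libraries, and Adipoq, a defining marker, had 40, 51, 0 and 3 counts. Cidec and Lipe gave most of the adipocyte sum, and the other 8 genes summed to 42.0, 82.6, 9.29 and 8.06 CPM in libraries 7 to 10. The part of any of these cell types in the level of Cd36 was not tested.

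Of the cytosolic fatty acid binding proteins, Fabp2 (chr3:122895072-122899506, plus strand), the intestinal form, was at 3161 and 2367 CPM in WT SI and at 1556 and 1691 CPM in p53-/- SI. Both WT libraries lay above both p53-/- libraries, and the p53-/- mean was 58.7% of the WT mean. The log2 fold change was -0.77 (standard error 0.304, unadjusted p = 0.0490, adjusted p = 0.275, edgeR's quasi-likelihood test), with a 95% interval from -1.53 to -0.0050. With DESeq2 the adjusted p was 0.0135. Fabp1 (chr6:71199827-71205023, plus strand), the liver form that is shared by liver and proximal SI, had 88 and 58 counts in the WT libraries and 55 and 81 in the p53-/- libraries. These values overlapped, with a log2 fold change of -0.52 and an interval from -1.70 to 0.66 (-0.22 without library 7 and -0.20 without library 9). Of the hepatocyte markers, Alb and Ahsg had 0 counts in all 4 libraries, and the 8 genes of that list summed to between 4.23 and 8.24 CPM. Cyp2e1, of the same list, had 30, 93, 2 and 4 counts in libraries 7 to 10 (log2 fold change -4.74, adjusted p = 0.103, edgeR's quasi-likelihood test).

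Dgat1 (chr15:76502015-76511953, minus strand) encodes the acyltransferase of the last step of triglyceride synthesis. It was at 427 and 417 CPM in WT SI and at 302 and 289 CPM in p53-/- SI. The libraries of each genotype lay close to each other and the genotypes did not overlap. The p53-/- mean was 70.0% of the WT mean, and the log2 fold change was -0.51 (standard error 0.187, unadjusted p = 0.0370, adjusted p = 0.247, edgeR's quasi-likelihood test), with an interval from -0.98 to -0.04. It was not called by DESeq2 either (adjusted p = 0.0638).

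The core of the particle is made by Apob and Mttp. Apob (chr12:7977648-8016835, plus strand), whose product is the structural protein of the chylomicron, was at 2326 and 2310 CPM in WT SI and at 2072 and 1306 CPM in p53-/- SI. The genotypes did not overlap, but p53-/- library 9 lay nearer to the WT libraries than to library 10. The log2 fold change was -0.46, with an interval from -1.30 to 0.38, and it was -0.11 without library 10 and -0.83 without library 9. Mttp (chr3:138089854-138144968, minus strand), the transfer protein that loads lipid onto apolipoprotein B, was at 800 and 627 CPM in WT SI and at 698 and 652 CPM in p53-/- SI. Its p53-/- mean was 94.7% of the WT mean, and the interval ran from -0.68 to 0.52 on the log2 scale. The log2 fold change of Mttp was -0.08 with all libraries, 0.12 without library 7 and 0.03 without library 10. Ratios within a library do not depend on scaling. There were 34.4 and 27.1 counts of Mttp per 100 counts of Apob in the WT libraries and 33.7 and 49.9 in the p53-/- libraries, which overlapped. Counts of Dgat1 per 100 counts of Mttp were 53.4 and 66.6 in the WT libraries and 43.3 and 44.3 in the p53-/- libraries, which did not overlap. Exons of Mttp overlap those of Trmt10a on the other strand, a gene with at most 118 counts in a library.

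Apoa1, Apoc3 and Apoa4 encode apolipoproteins of the particle surface and lie side by side on chromosome 9 (GENCODE M21, GRCm38). Apoa1 spans 46228580 to 46230466 on the plus strand, Apoc3 46232933 to 46235636 on the minus strand and Apoa4 46240696 to 46243459 on the plus strand. Apoa1, the main protein of HDL, was at 9438 and 7799 CPM in WT SI and at 4785 and 4610 CPM in p53-/- SI. The WT and p53-/- values did not overlap, and the p53-/- mean was 54.5% of the WT mean. The log2 fold change was -0.88 (standard error 0.372, unadjusted p = 0.0609, adjusted p = 0.303, edgeR's quasi-likelihood test), with an interval from -1.81 to 0.06. The adjusted p was 0.000687 with DESeq2 and 0.0117 with edgeR's likelihood ratio test, and over the alternatives tried it lay between 0.000687 and 0.894. Apoc3, an inhibitor of lipoprotein lipase, was at 53.4 and 31.1 CPM in WT SI and at 18.5 and 31.9 CPM in p53-/- SI. Library 10 reached the level of WT library 8, and the log2 fold change of Apoc3 was -0.75 with an interval from -1.68 to 0.18. It was -0.30 without library 7 and -0.41 without library 9.

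Apoa4, a satiety-linked apolipoprotein made in response to lipid, varied more within a genotype than between genotypes. It was at 260 and 28.4 CPM in WT SI and at 12.4 and 74.9 CPM in p53-/- SI. WT library 7 was 9.14-fold above WT library 8, and p53-/- library 10 was 6.02-fold above library 9. The log2 fold change was -1.72 with an interval from -4.71 to 1.26 (adjusted p = 0.526, edgeR's quasi-likelihood test), and it was 0.62 without library 7 and -3.45 without library 10. The direction for Apoa4 thus rested on library 7. Per 100 counts of Apoa1 there were 2.75 and 0.364 counts of Apoa4 in the WT libraries and 0.260 and 1.63 in the p53-/- libraries. Apoc3 stood at 0.566 and 0.398 counts per 100 of Apoa1 in the WT libraries and at 0.387 and 0.692 in the p53-/- libraries, so the 3 neighbouring genes kept no constant proportion between libraries. Gm47528, whose exons overlap those of Apoa4 on the other strand, had at most 16 counts. Apoa5, the next gene of the cluster, had 0 counts in every library. Of the 6 tested genes listed as neighbours of the locus, 0 passed the threshold and 0 had an unadjusted p under 0.05 by edgeR's quasi-likelihood test, and DESeq2 and the likelihood ratio test called 0. Zpr1, beyond Apoa5, was at 32.8, 24.8, 29.4 and 34.2 CPM in libraries 7 to 10.

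**Figure D3:**
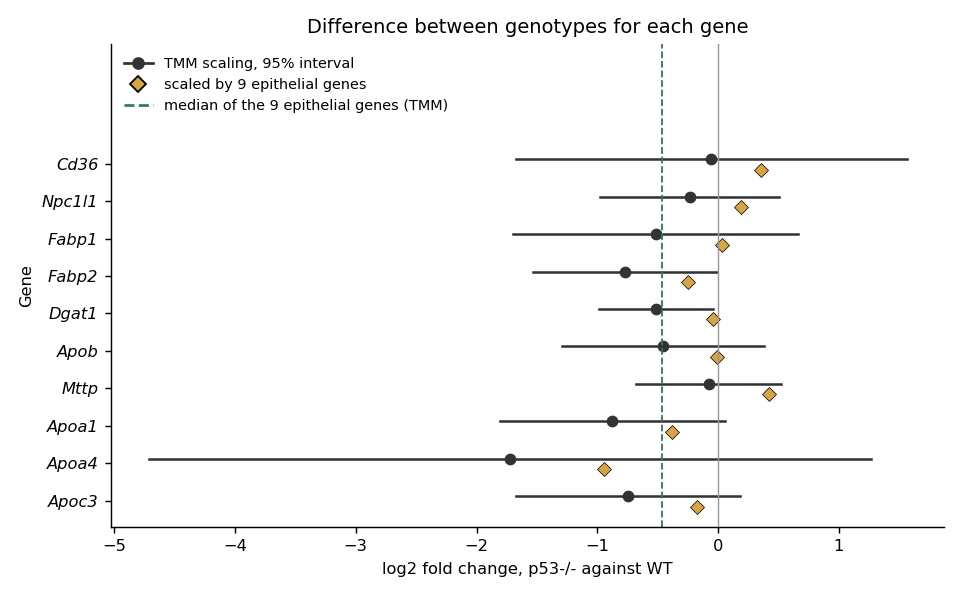
Log2 fold change of each gene, p53-/- against WT. Black points and bars give the fit with TMM scaling and its 95% interval, the dashed line the median of 9 epithelial genes in that fit (-0.47), and yellow diamonds the fold change when libraries are scaled to those epithelial genes, where Cd36, Npc1l1, Fabp1 and Mttp are above 0.

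In bulk SI, fewer absorptive cells and less RNA per cell cannot be told apart, so the levels were set beside those of general epithelial genes. The 9 epithelial genes, among them Epcam, Vil1 and Cdh1, summed to 23393 and 17071 CPM in the WT libraries and to 15491 and 12932 CPM in the p53-/- libraries. All 9 had a log2 fold change below 0, with a median of -0.47 against -0.52 for the 10 lipid genes, and 0 passed the threshold (1 had an unadjusted p under 0.05 by edgeR's quasi-likelihood test, and 2 were called lower by DESeq2 and 0 by the likelihood ratio test). With the libraries scaled to these epithelial genes, the median of all genes moved up by 0.48 and that of the 10 lipid genes was -0.02. Under this scaling the log2 fold changes were -0.94 for Apoa4, -0.38 for Apoa1, -0.25 for Fabp2, -0.17 for Apoc3, -0.04 for Dgat1 and -0.01 for Apob. They were above 0 for Fabp1 (0.03), Npc1l1 (0.19), Cd36 (0.35) and Mttp (0.42), and the median of all genes tested was 0.47. Each of the 10 lipid genes lay below the median of all genes under either scaling. Rescaling moves all genes by nearly the same amount, so the second scaling is no separate evidence for this. With the libraries scaled to the epithelial genes, 0.118% of all genes were called lower and 1.11% higher. Of the 10 lipid genes, 0 were called by edgeR's quasi-likelihood test (0 with an unadjusted p under 0.05). Counts of Apoa1 per 100 counts of Epcam were 226 and 258 in the WT libraries and 184 and 207 in the p53-/- libraries, which did not overlap. Those of Fabp2 were 75.6 and 78.4 against 59.9 and 76.0, which did. Mttp stood at 19.1 and 20.7 counts per 100 of Epcam in the WT libraries and at 26.9 and 29.3 in the p53-/- libraries, and at 27.9 and 23.6 against 29.9 and 38.6 per 100 counts of Vil1, so that both ratios were higher in the p53-/- libraries. Per 100 counts of Vil1, Apob stood at 81.1, 86.9, 88.7 and 77.3 in libraries 7 to 10, so that the p53-/- values lay on both sides of the WT values.

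The rest of the pathway was read from 3 further lists of 57 genes found in the table, of which 53 had enough counts to be tested. By edgeR's quasi-likelihood test 0 of the 53 passed the threshold, 16 had an unadjusted p under 0.05 with the lower level in the p53-/- SI and 2 with the higher level, where 7.92% and 10% of all genes did. DESeq2 called 7 lower and 2 higher, and the likelihood ratio test 5 lower and 2 higher. Of all genes, DESeq2 called 3.50% lower and 5.05% higher, and the likelihood ratio test 2.87% lower and 5.18% higher. Both WT libraries were above both p53-/- libraries for 32 of the 53 and below for 6, against 24.4% and 26.4% of all genes tested.

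**Figure D4:**
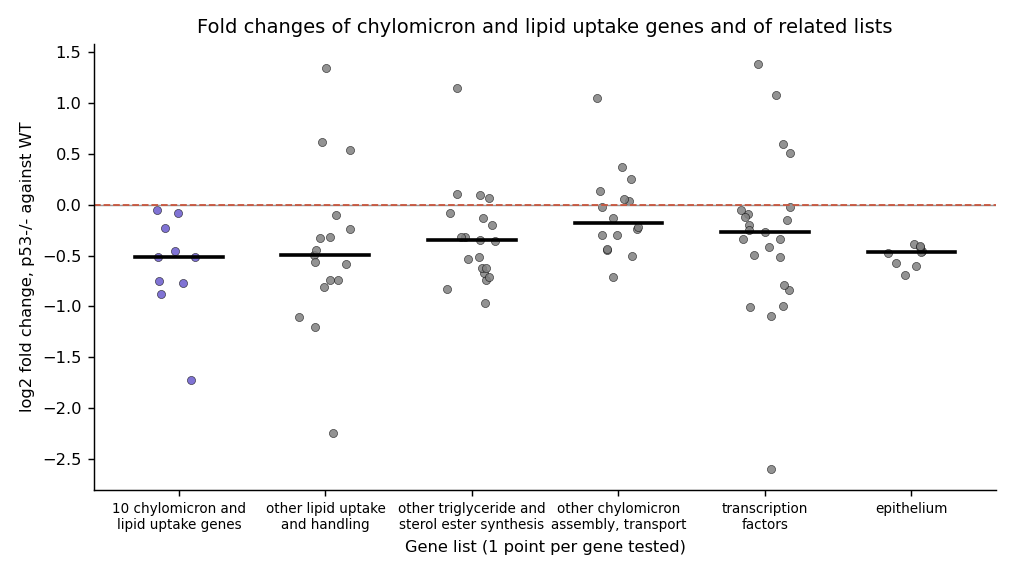
Log2 fold change (p53-/- against WT, TMM scaling) of each gene tested in the 10-gene set, in 3 further pathway lists, in a list of transcription factors and in the epithelial list; bars are medians and the dashed line the median of all genes tested (-0.01). The medians are -0.52, -0.49, -0.35, -0.18, -0.26 and -0.47 in the order named.

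Among 17 genes of lipid uptake and handling, the median log2 fold change was -0.49. Slc27a4, the fatty acid transport protein of the enterocyte, was at 978 and 846 CPM in WT SI and at 776 and 676 CPM in p53-/- SI (log2 fold change -0.33, interval -0.92 to 0.26). Abcg5 and Abcg8 form the pump that returns sterols to the lumen, the counterpart of Npc1l1. Abcg5 was at 308 and 239 CPM in WT SI and at 170 and 157 CPM in p53-/- SI, and Abcg8 at 283 and 247 against 173 and 143 CPM. Their log2 fold changes were both -0.74, with adjusted p-values of 0.168 and 0.159 from edgeR's quasi-likelihood test and 0.0190 and 0.0152 from DESeq2. Acsl3, which activates long-chain fatty acids, had the lowest fold change of the list, with 121 and 50.8 CPM in the WT libraries and 19.5 and 16.9 CPM in the p53-/- libraries (log2 fold change -2.24, adjusted p = 0.103, edgeR's quasi-likelihood test). Bco1, which cleaves beta-carotene, had a log2 fold change of -1.20 and Rbp2, the intestinal retinol binding protein, of -1.11 (adjusted p = 0.103 and 0.175, edgeR's quasi-likelihood test), and DESeq2 called both lower. On the other side, Slc27a2, a very long-chain acyl-CoA synthetase, was at 13.4 and 10.5 CPM in WT SI and at 30.9 and 29.7 CPM in p53-/- SI (log2 fold change 1.34, adjusted p = 0.0836, edgeR's quasi-likelihood test). DESeq2 called it higher. Scarb1, a lipoprotein receptor, and Abca1, the exporter of cholesterol to HDL, had log2 fold changes of 0.61 and 0.53 with intervals that included 0.

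Among 20 genes of triglyceride and cholesteryl ester synthesis the median was -0.35. Mogat2, which makes diacylglycerol for the step of Dgat1, was at 517 and 355 CPM in WT SI and at 283 and 239 CPM in p53-/- SI. Dgat2, the other enzyme of the last step, was at 317 and 177 against 150 and 128 CPM. The genotypes did not overlap for either gene, and their log2 fold changes were -0.74 and -0.82 (adjusted p = 0.232 and 0.259, edgeR's quasi-likelihood test). Counts of Dgat1 per 100 counts of Dgat2 were 135 and 236 in the WT libraries and 201 and 225 in the p53-/- libraries. Lpin3, a phosphatidate phosphatase, had a log2 fold change of -0.96 (adjusted p = 0.115, edgeR's quasi-likelihood test) and was called lower by DESeq2. Soat2, the sterol acyltransferase of the enterocyte, was at 74.3, 64.6, 80.0 and 65.4 CPM in libraries 7 to 10, whereas Soat1, a broadly expressed form that is high in macrophages, was at 14.2 and 15.8 CPM in WT SI and at 30.9 and 35.5 CPM in p53-/- SI (log2 fold change 1.15, adjusted p = 0.0912, edgeR's quasi-likelihood test). Soat1 was called higher by DESeq2. Plin2 and Agpat3, the next in order on the high side, had log2 fold changes of 0.09 and 0.10.

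Of the 3 further pathway lists, assembly and transport genes stood nearest to the median of all genes, with a median of -0.18 over 16 tested genes. P4hb, the partner subunit of Mttp, was at 1289 and 888 CPM in WT SI and at 1249 and 1146 CPM in p53-/- SI. The interval of its log2 fold change ran from -0.58 to 0.86. Sar1b, the GTPase that chylomicrons need to leave the endoplasmic reticulum, was at 199 and 133 against 118 and 125 CPM, and Mia2, a cargo receptor of the same step, at 316 and 211 against 178 and 145 CPM. The genotypes did not overlap for either, with log2 fold changes of -0.45 and -0.71 (adjusted p = 0.404 and 0.251, edgeR's quasi-likelihood test). Apobec1, which edits the Apob transcript to the short form, had a log2 fold change of -0.24 with an interval that included 0. Tm6sf2 and Prap1 had log2 fold changes of -0.30 and -0.51, and Sec23b and Pla2g12b of 0.37 and 0.25, each with an interval that included 0. The small apolipoproteins Apoc1 and Apoa2 had at most 7 and 17 counts in a library, and Apoc2, the activator of lipoprotein lipase, had 0, 0, 2 and 4 counts. Apoe, which macrophages also make, was at 103 and 312 CPM in WT SI and at 287 and 572 CPM in p53-/- SI. Its levels overlapped between genotypes, and the part of macrophages in them was not tested.

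Of 23 transcription factors with a known place in enterocyte lipid genes, 0 passed the threshold by edgeR's quasi-likelihood test, 6 had an unadjusted p under 0.05 with the lower level in the p53-/- SI and 3 with the higher level, against 7.92% and 10% of all genes. DESeq2 called 3 lower and 1 higher, against 3.50% and 5.05%, and the likelihood ratio test 2 lower and 1 higher, against 2.87% and 5.18%. Creb3l3, a membrane-bound factor that activates Apoa4 and other lipid genes, was at 498 and 164 CPM in WT SI and at 56.8 and 52.4 CPM in p53-/- SI. Library 7 was the highest, as for Apoa4, but the WT libraries were both above the p53-/- libraries, which differed little. Its log2 fold change was -2.60 (interval -3.94 to -1.25, adjusted p = 0.111, edgeR's quasi-likelihood test), and -1.57 without library 7. In p53-/- library 10 Apoa4 lay above libraries 8 and 9 and below library 7, while Creb3l3 was at its lowest. There were 143 counts of Apoa4 per 100 of Creb3l3 in library 10, against 52.1, 17.4 and 21.9 in libraries 7, 8 and 9. The part of Creb3l3 in the level of Apoa4 was not tested. Ppara, the fatty acid receptor, was at 29.3 and 23.9 CPM in WT SI and at 14.8 and 11.8 CPM in p53-/- SI, and its coactivator Ppargc1a had a log2 fold change of -1.10, also with no overlap between genotypes (adjusted p = 0.140 and 0.208, edgeR's quasi-likelihood test). Cdx2, an intestinal identity factor, was at 533 and 338 CPM in WT SI and at 231 and 204 CPM in p53-/- SI (adjusted p = 0.167, edgeR's quasi-likelihood test). DESeq2 called Creb3l3, Ppara and Cdx2 lower. Hnf4a and Hnf4g, which drive much of the enterocyte program, overlapped between genotypes. Hnf4a was at 1454, 1101, 1143 and 777 CPM in libraries 7 to 10, and Hnf4g at 345, 302, 315 and 266 CPM. On the high side were Gata4, with 7 to 83 counts, Prdm1 (log2 fold change 1.07) and Plagl2 (0.60), none past the threshold (adjusted p = 0.440, 0.140 and 0.158, edgeR's quasi-likelihood test).

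Marker lists of other cell types and of gut segments were tested in the same fit. By edgeR's quasi-likelihood test 2 of 9 adipocyte genes passed the threshold, both lower in the p53-/- SI, and 0 of the endothelial, macrophage, T cell, B cell, enterocyte, hepatocyte, proximal or distal genes did, with an unadjusted p under 0.05 for 0 of 10, 3 of 8, 8 of 8, 6 of 6, 3 of 10, 1 of 3, 4 of 7 and 5 of 7 of those tested (7.92% of all genes had such a p with the lower level in the p53-/- SI and 10% with the higher). DESeq2 called 8 T cell, 6 B cell and 2 proximal genes higher, and 7 adipocyte, 5 distal, 3 enterocyte and 1 hepatocyte gene lower, where it called 5.05% of all genes higher and 3.50% lower. The hepatocyte gene was Cyp2e1, while Alb and Ahsg of that list had 0 counts.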

How the data were processed

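Libraries of SI RNA (2 WT and 2 p53-/-) were compared from the table of raw counts per gene that the authors deposited. The submitters' processing notes name fastp, HISAT2 2.0.5, featureCounts 1.5.0-p3 and DESeq2 1.20.0. The genome build, annotation and strand setting behind the counts are not given in the sources used here, so reads of overlapping genes on opposite strands cannot be told apart. Table columns were assigned to genotypes by their names, which carry no replicate number of the labels.

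Genes with low counts were removed with filterByExpr (16094 of 56748 kept), libraries were scaled by TMM, and genotypes were compared with the two-sided quasi-likelihood test of edgeR 4.0.16 (R 4.3.3) with Benjamini-Hochberg adjustment over all genes tested, at 0.05. Intervals are 95% intervals of the fitted log2 fold change. Other scalings, DESeq2 1.42.0, the likelihood ratio test, other filters and leaving out each library were tried. Leaving out ribosomal RNA, and the sums of marker lists without their most abundant genes, were chosen after seeing the data. Exonic lengths and positions came from GENCODE M21, used for these only.

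The 10 genes, the lists and the motifs were chosen with earlier results of these data known. Named besides the 10 are partners of their products and up to 3 genes with the highest and 3 with the lowest fold change of each pathway list. Depth was 15005479 to 22173164 counts per library.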

Additional observations from a re-analysis of the deposited data

How the results depend on the processing

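The number of calls depended on the tool and on the filter. Of the 10 lipid genes, 2 were called lower by DESeq2 (Apoa1, log2 fold change -0.90, and Fabp2, -0.79), 1 by the likelihood ratio test (Apoa1, -0.88) and 2 without a filter (Apoa4, -1.67, and Apoc3, -0.70), against 0 in the reported fit. The genotypes overlapped for Apoa4 and Apoc3. In the same order of settings, the uptake list had 6, 4 and 6 lower and 1, 1 and 1 higher, the triglyceride list 1, 1 and 2 lower and 1, 1 and 1 higher, and the transcription factors 3, 2 and 5 lower and 1, 1 and 2 higher. The assembly list had 1 higher without a filter. Over all genes the reported fit called 48 higher and 31 lower, DESeq2 813 and 563, the likelihood ratio test 833 and 462, no filter 1433 and 761, library size alone 26 and 20, upper-quartile factors 29 and 20, and at least 10 counts in every library 24 and 18. The cause of these differences between settings was not tested.

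Scaling to the 9 epithelial genes moved the median of all genes by 0.48 and the share of calls that were higher from 60.8% to 90.4% (179 higher, 19 lower). Medians became -0.024 for the 10 lipid genes, 0.021 for uptake, 0.14 for triglyceride synthesis, 0.31 for assembly and 0.20 for transcription factors. The log2 fold change changed sign for Cd36 (0.35), Npc1l1 (0.19), Fabp1 (0.032), Mttp (0.42), Slc27a4 (0.16), Sar1b (0.081), Apobec1 (0.23), Prap1 (0.025), Tm6sf2 (0.20), Hnf4a (0.077) and Hnf4g (0.33). Other settings were RLE or upper-quartile factors, library size alone, TMM without the 50 most abundant genes, TMM without immunoglobulin and T cell receptor segments, and ribosomal RNA left out. Under these, results followed for the 10 lipid genes, the pathway lists, the transcription factors and their named genes kept their direction and their side of the threshold. Trp53, the neighbours of the Apoa1 locus and the calls of the marker lists were not followed through these settings. Of the marker genes only Fabp6, Slc10a2 and Gata4 were followed.

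Leaving out 1 library at a time, where the lone library is assumed to vary like the other genotype, gave 325 higher and 319 lower without library 7, 680 and 344 without library 8, 77 and 9 without library 9, and 0 and 0 without library 10 (edgeR's quasi-likelihood test, 1201 genes with an unadjusted p under 0.05). The median of the 10 lipid genes ran from -0.76 to -0.40 and that of the assembly list from -0.26 to -0.057. Calls ran from 0 to 3 lower and 0 to 1 higher for uptake, 0 to 2 lower and 0 to 1 higher for triglyceride synthesis, and 0 to 5 lower for transcription factors. Log2 fold changes that changed sign ran from -0.74 to 0.79 for Cd36, -0.58 to 0.090 for Npc1l1, -0.25 to 0.12 for Mttp, -3.45 to 0.62 for Apoa4, -0.092 to 0.26 for Soat2, -0.11 to 0.44 for P4hb, -1.57 to 0.022 for Fabp6 and -0.29 to 0.014 for Hnf4g. No paired analysis was possible because the columns of the count table carry no replicate number of the labels.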
